A study of Homo sapiens with 6 samples.

Results

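Ribosomes are built in the nucleolus. RNA polymerase I transcribes the ribosomal DNA into a long precursor RNA, small nucleolar ribonucleoproteins (snoRNPs) methylate and pseudouridylate it, and many assembly factors fold and cut it into the 40S and 60S subunits. Growing cancer cells spend much of their synthetic capacity on this pathway, and mTORC1 and MYC are textbook activators of it. Here, 52 protein-coding genes of the pathway were followed in 22Rv1-ABHD5 cells. They were chosen from textbook knowledge with earlier results of these data known, so comparisons with all genes only describe this list. Each of the 52 symbols was found in the table of gene counts, among 27470 genes. Each of them passed the filter on low counts and was tested among 12233 genes. They comprise 7 genes of RNA polymerase I and its factors, 2 abundant nucleolar proteins, 3 of the core proteins of box C/D snoRNPs, 5 proteins of box H/ACA snoRNPs, 14 factors of the small subunit processome, 4 factors of late 40S maturation and 17 factors of 60S assembly.

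22Rv1 is a human castration-resistant prostate cancer cell line. In 22Rv1-ABHD5 cells a stably integrated lentiviral vector carries ABHD5, the coactivator of the triglyceride lipase ATGL, behind a doxycycline (Dox)-inducible promoter, and the cells were selected with G418. Both conditions therefore carry the vector. The 3 control libraries came from cells grown without Dox and the 3 overexpression libraries from cells grown with Dox, for 48 h. Cells that lack the vector, grown with Dox, were not analysed here, so Dox and ABHD5 cannot be told apart. Whether the replicates came from separate cultures is not stated, and p-values then measure only the spread between these libraries.

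The 3ʹ ends of polyadenylated transcripts were counted. Ribosomal RNA itself and its modifications were not measured. Library totals ranged from 3394672 to 7271771 counts. The share of reads assigned to no gene was 32.5% to 34.6% in libraries without Dox but 35.6% to 39.5% in those with Dox, and the part of this difference in the results below was not tested. Levels are CPM, the counts scaled to a common library size, after TMM normalization. They are shares of each library's mRNA, and in bulk RNA fewer cells and less RNA per cell cannot be told apart. ABHD5 itself had 61.4 ± 2.999 CPM without Dox and 116.1 ± 21.3 CPM with Dox (SD, n = 3 each), or 0.91 higher on the log2 scale (standard error, SE, 0.15) with an adjusted p of 1.978e-04, and no library without Dox reached any with Dox. Whether reads of the transgene, which need not carry the 3ʹ end of the gene itself, are among these counts is not known. Of 10 markers of prostate luminal epithelium, each had counts in each library. Of 12 markers of fibroblasts, endothelium and immune cells, PECAM1, VWF, CDH5 and CD3E had no count in any library, and the 12 together summed to 7.24 to 11.2 CPM per library. The prostate markers summed to 1565 to 1671 CPM without Dox and to 991 to 1106 CPM with Dox; their part in the results was not tested.

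Part of the ribosome biogenesis mRNAs fell with Dox, and none of the 52 rose by the test. Of the 52 genes, 17 fell at an adjusted p under 0.05 and 0 rose (0 rose at an unadjusted p under 0.05 too), where p is edgeR's quasi-likelihood p adjusted by Benjamini-Hochberg over all 12233 genes tested. With DESeq2, 17 fell and 0 rose. In all genes tested, 25.5% were called in either direction, 13.7% fell and 11.9% rose, whereas 32.7% of the 52 fell. That is 1674 falls and 1451 rises over all genes, against 1136 and 2179 when libraries were scaled by their totals alone. In 115 other genes of the pathway, described below, 12.2% fell. The log2 fold change was below 0 for 46 of the 52, against 48.5% of all genes, and its median was -0.35 against 0.02 for all genes. The libraries with Dox lay wholly below those without Dox for 24 of the 52 genes, which is 46.2% of them, against a background of 20.5%, and wholly above for 0, against 19% of all genes. Summed over the 52 genes, the level was 8963 ± 551 CPM without Dox and 6473 ± 635 CPM with Dox (SD, n = 3 each), which is 27.8% lower. With library totals alone the change of the sum was -21.5%. A few abundant genes weigh heavily in this sum. PA2G4, NCL and FBL had means of 1540, 1396 and 553 CPM without Dox and 865, 1048 and 306 CPM with Dox. NCL was not among the 17.

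The falls were small in size. The 17 genes that fell did so by 1.29-fold to 2.08-fold, and NOC2L alone exceeded 2-fold. In counts simulated at these depths, 28.8% of genes given a 1.5-fold change were called and 75.4% of those given a 2-fold change. These shares are not specific to the 52 genes, whose median level was 6.45 log2 CPM against 5.02 for all genes tested. How often a fall among the 52 would miss the threshold was not tested. Of the calls made on the simulated counts, 9.03% were false. At an unadjusted p under 0.05, 30 of the 52 were lower, and 14 with library totals alone. Of all 12233 genes, 4507 were under that p in either direction. The fold changes by role are shown in the plot of the 52 genes.

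**Figure D1:**
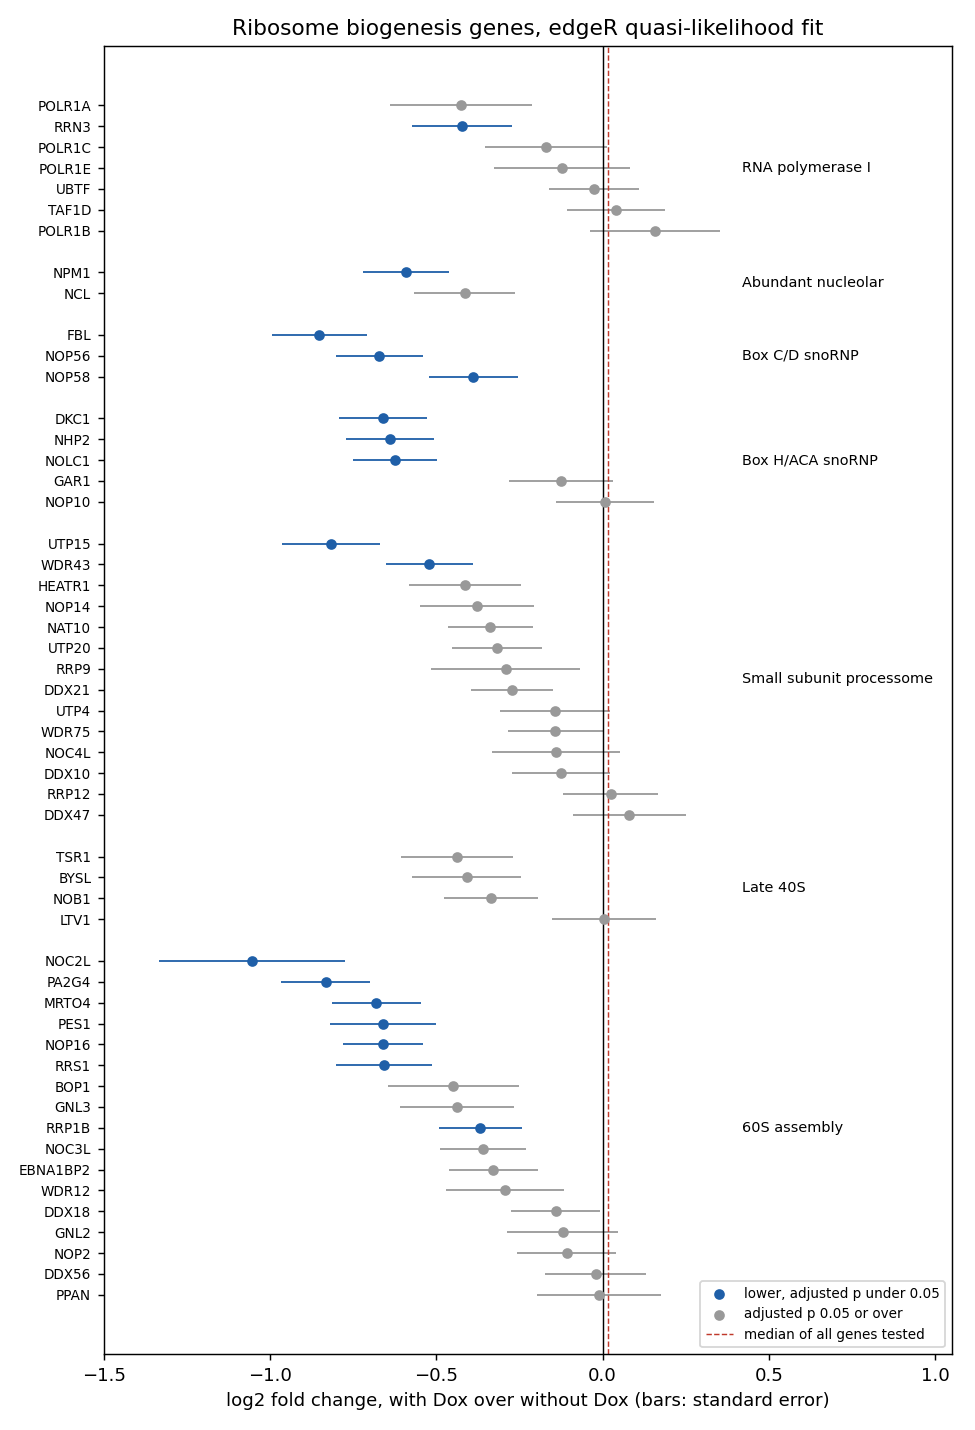
Log2 fold change (x axis, with Dox over without Dox) of each of the 52 genes (y axis), grouped by role, with its standard error as the bar. The 17 genes in blue fell at an adjusted p under 0.05, the grey genes did not pass, and the dashed line is the median of all genes tested, 0.02.

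The box C/D snoRNP methylates ribosomal RNA at the 2ʹ-hydroxyl of its riboses, and 3 of its core proteins, FBL, NOP56 and NOP58, fell. SNU13, the core protein that binds the snoRNA and was counted among the other pathway genes, did not pass (log2 fold change -0.20, adjusted p = 0.265); it is named with its values known. FBL, the fibrillarin methyltransferase (chromosome 19 of hg38, from 39834458 to 39846379), had 593, 627 and 438 CPM in replicates 1, 2 and 3 without Dox and 324, 315 and 279.9 CPM with Dox. The lowest library without Dox thus exceeded the highest with Dox. The log2 fold change of FBL was -0.85 (SE 0.14, adjusted p = 2.737e-04). NOP56, a scaffold protein of the same particle (chromosome 20, from 2652593 to 2658393), had 257, 304 and 248 CPM without Dox and 157, 192 and 159 CPM with Dox, again without overlap. Its log2 fold change was -0.67 (SE 0.13, adjusted p = 0.00109). NOP58, the partner scaffold of NOP56, fell less, from 198 ± 18.0 to 152 ± 22.2 CPM (SD, n = 3 each), with an adjusted p of 0.0409, and its 3ʹ end overlaps an unnamed gene on the other strand. Its call was lost without any 1 library other than replicate 2 with Dox, where its log2 fold change ranged from -0.51 to -0.31 over the 6 fits that each left out a library.

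The box H/ACA snoRNP converts uridine to pseudouridine, and of its 5 genes here 3 fell and 2 did not pass. DKC1, the pseudouridine synthase dyskerin (chromosome X, from 154762742 to 154777689), had 405, 428 and 327 CPM without Dox and 228, 265 and 242 CPM with Dox. Its log2 fold change was -0.66 (SE 0.13, adjusted p = 0.00134), and the conditions did not overlap. NOLC1, a chaperone of snoRNPs (chromosome 10, from 102152176 to 102163871), had 213, 234 and 210.3 CPM without Dox and 147, 154 and 125 CPM with Dox. Its log2 fold change was -0.62 (SE 0.13, adjusted p = 0.00136). NHP2, an RNA-binding core protein, fell from 129 ± 8.46 to 82.7 ± 10.2 CPM (SD, n = 3 each) with an adjusted p of 0.00160. The 3ʹ end of NHP2 overlaps exons of RMND5B on the other strand, and reads of such genes cannot be told apart without strand. The other core proteins, GAR1 and NOP10, had log2 fold changes of -0.12 and 0.0073 and did not pass (adjusted p = 0.604 and 0.979). NOP10 had 91.4, 81.6 and 111.02 CPM without Dox and 98.3, 79.3 and 108 CPM with Dox, and the conditions overlapped.

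NPM1 and NCL encode nucleophosmin and nucleolin, which are among the most abundant proteins of the nucleolus. NPM1 (chromosome 5, from 171387116 to 171411810) had 276, 277 and 274 CPM without Dox and 186, 208 and 155 CPM with Dox. Its 3 libraries without Dox lay within a few CPM of each other, and each library with Dox was lower. The log2 fold change was -0.59 (SE 0.13, adjusted p = 0.00261). GENCODE lists 49 pseudogenes named after NPM1, so reads could be lost to or shared with these copies, and its level is uncertain. NCL (chromosome 2, from 231453531 to 231483641) had 1294, 1564 and 1331 CPM without Dox and 1095, 1235 and 813 CPM with Dox. These did not overlap, but the log2 fold change of -0.42 (SE 0.15, adjusted p = 0.0533) did not pass. It passed without replicate 2 with Dox (-0.55, adjusted p = 0.0110) and with DESeq2, and its adjusted p ranged from 0.0110 to 0.214 over 15 alternatives.

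**Figure D2:**
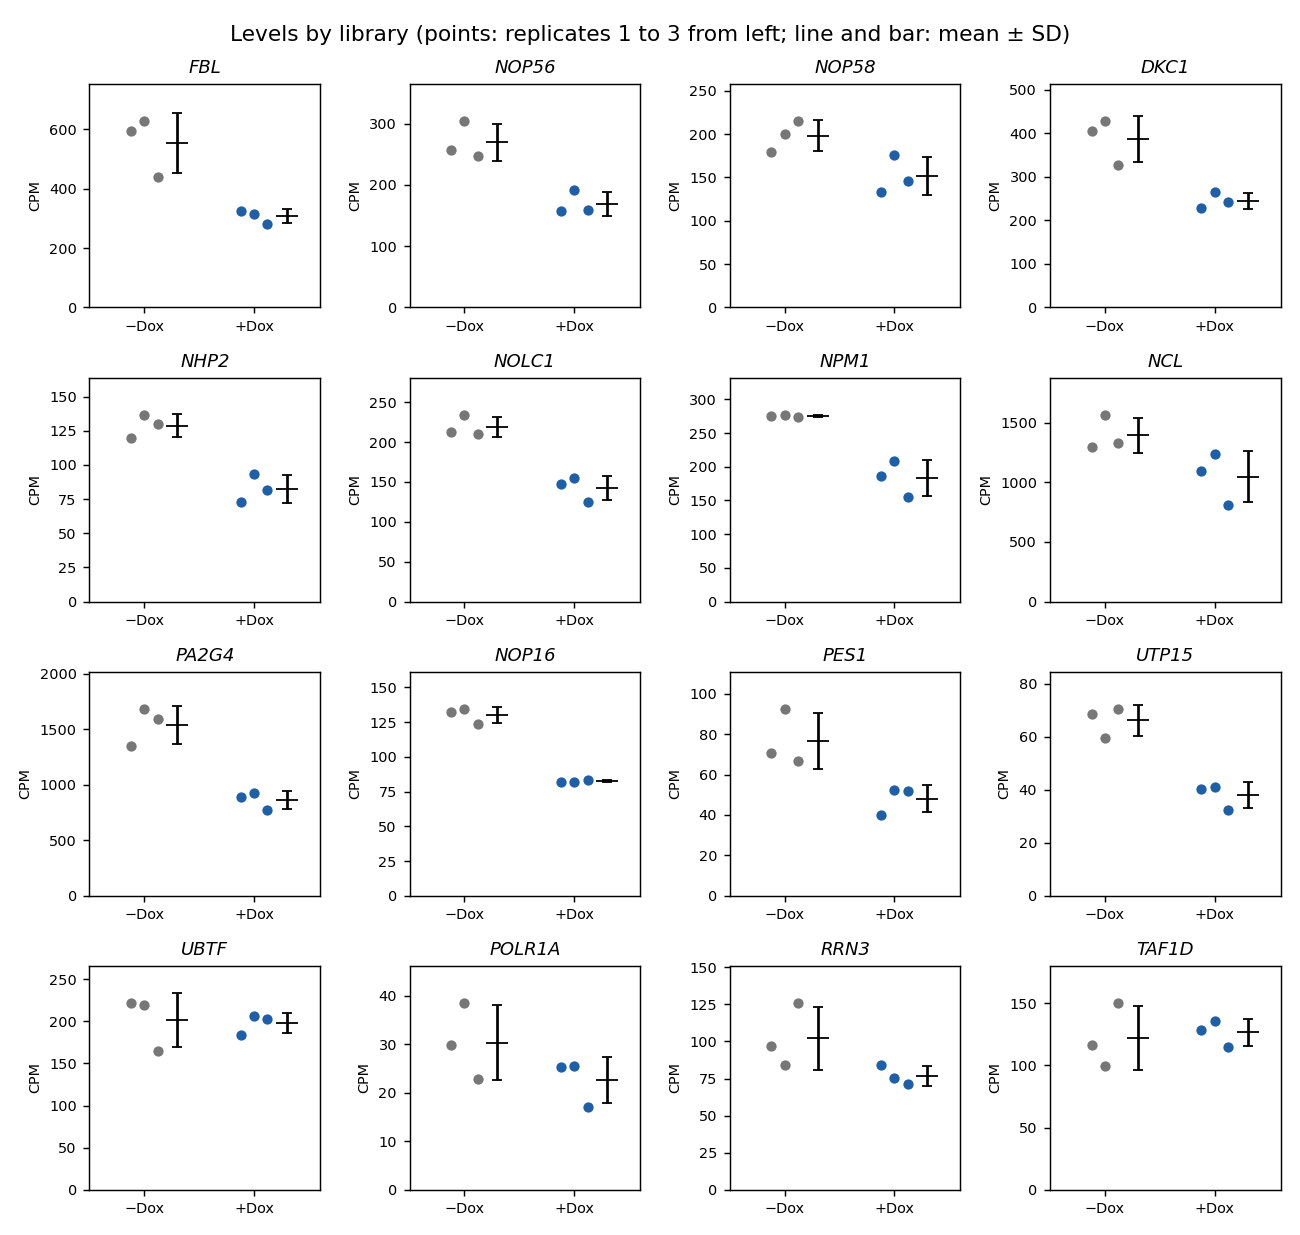
Level in CPM (y axis, from 0) of 16 of the 52 genes in each library (points, replicates 1 to 3 from left to right) without Dox (grey) and with Dox (blue), with the mean ± SD as a line and bar. FBL, NOP56, DKC1, NPM1, PA2G4 and NOP16 do not overlap between the conditions, whereas UBTF and TAF1D do.

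Of the RNA polymerase I machinery, 1 of 7 genes fell and 6 did not pass, a share of 14.3% against 13.7% of all genes, and the median log2 fold change was -0.12. RRN3, the factor that brings the polymerase to the promoter (chromosome 16, from 15060033 to 15094311), had 96.9, 84.0 and 126 CPM without Dox and 84.2, 75.1 and 71.2 CPM with Dox. The log2 fold change was -0.42 (SE 0.15, adjusted p = 0.0477), but the conditions overlapped slightly. The call was lost in 11 of 15 alternatives, 5 of which left out a library other than replicate 2 without Dox (log2 fold change -0.55 to -0.24 over the 6 fits without 1 library), and GENCODE lists 4 pseudogenes named after RRN3.

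The polymerase subunits themselves did not pass. POLR1A, the largest, catalytic subunit, had 29.8, 38.5 and 22.9 CPM without Dox and 25.2, 25.6 and 17.1 CPM with Dox. Its log2 fold change of -0.43 was as large as that of RRN3, but its libraries varied more (SE 0.21, adjusted p = 0.155). POLR1B, the second-largest subunit, had 30.0, 17.1 and 23.2 CPM without Dox and 28.3, 26.2 and 24.7 CPM with Dox, a log2 fold change of 0.16 (adjusted p = 0.599). POLR1C, which RNA polymerase III shares, had 28.2, 31.3 and 33.7 CPM without Dox and 27.4, 20.6 and 33.8 CPM with Dox, or -0.17 on the log2 scale (adjusted p = 0.545). The 3ʹ end of POLR1C overlaps exons of XPO5 on the other strand, so its counts are uncertain. POLR1E had 15.2, 23.3 and 21.3 CPM without Dox and 20.4, 18.9 and 15.9 CPM with Dox, or -0.12 on the log2 scale (adjusted p = 0.707), and the conditions overlapped.

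The factors that bind the promoter did not pass either. UBTF, the HMG-box protein that covers active ribosomal DNA, had 221, 219 and 165 CPM without Dox and 184, 206 and 203 CPM with Dox, a log2 fold change of -0.026 (SE 0.13, adjusted p = 0.914). TAF1D, a subunit of the selectivity factor SL1, had 116, 99.5 and 149.8 CPM without Dox and 129, 136 and 115 CPM with Dox, a log2 fold change of 0.041 (SE 0.15, adjusted p = 0.870). For both genes the spread between replicates exceeded the difference between the conditions. Summed over the 7 genes, the level was 531 ± 15.4 CPM without Dox and 496 ± 14.4 CPM with Dox (SD, n = 3 each), 6.62% lower; the sum over the 3 box C/D genes was 38.5% lower. Scaled by library totals alone, the 7 genes took 0.0507% ± 0.00172 of the counts without Dox and 0.0515% ± 0.00128 with Dox (SD, n = 3 each), so the direction of their sum turns with the scaling. The 3 box C/D genes took 0.0975% ± 0.0107 and 0.0652% ± 0.00512. No test compared these sums.

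The small subunit processome is the particle that forms on the 5ʹ part of the precursor and releases the pre-40S subunit. Of its 14 genes here, 2 fell and 12 did not pass, which at 14.3% is near the 13.7% of all genes, and the median log2 fold change was -0.28. UTP15 (chromosome 5, from 73565443 to 73583380) belongs to a subcomplex that also serves transcription of ribosomal DNA. It had 68.7, 59.5 and 70.3 CPM without Dox and 40.2, 41.2 and 32.4 CPM with Dox, a log2 fold change of -0.82 (SE 0.15, adjusted p = 5.663e-04). WDR43, of the same subcomplex (chromosome 2, from 28894667 to 28948219), had 199, 243 and 189 CPM without Dox and 142, 159 and 139 CPM with Dox, a log2 fold change of -0.52 (SE 0.13, adjusted p = 0.00680). Neither overlapped between conditions. Further members of that subcomplex among the 14 genes, WDR75, UTP4 and HEATR1, had log2 fold changes of -0.14, -0.14 and -0.41 and did not pass (adjusted p = 0.508, 0.570 and 0.0808).

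Among the remaining processome genes, the libraries of UTP20, NAT10, which acetylates 18S ribosomal RNA, and DDX21, an RNA helicase, did not overlap between the conditions, although none passed (adjusted p = 0.0951, 0.0600 and 0.116). DDX21 had 595, 606 and 633 CPM without Dox and 493, 559 and 467 CPM with Dox. NOP14 and RRP9 had log2 fold changes of -0.38 and -0.29. Those of NOC4L, DDX10, RRP12 and DDX47 lay between -0.14 and 0.081.

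Of the 4 late 40S factors, 0 passed (also 0 with DESeq2), while 3 were lower at an unadjusted p under 0.05. Of all 12233 genes, 4507 were under that p in either direction. BYSL and NOB1, the endonuclease that forms the 3ʹ end of 18S ribosomal RNA, did not overlap between the conditions. NOB1 had 55.6, 64.8 and 53.2 CPM without Dox and 48.1, 43.97 and 45.1 CPM with Dox, a log2 fold change of -0.34 (SE 0.14, adjusted p = 0.0908). BYSL had -0.41 and TSR1 -0.44. LTV1, in contrast, had 48.2 ± 6.57 and 48.8 ± 7.17 CPM (SD, n = 3 each).

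The 60S assembly factors, the largest role group, held the largest number of falls but not the largest share. Of 17 genes, 7 fell (41.2%, against 13.7% of all genes) and 10 did not pass. The share was 100% for the 3 box C/D genes, 60% for the 5 box H/ACA genes and 50% for the 2 abundant nucleolar proteins. These shares rest on few genes, and SNU13, a box C/D core protein kept in another list, did not pass. Each of the 17 had a log2 fold change below 0 (against 48.5% of all genes), with a median of -0.37. PA2G4, also known as EBP1, a protein that binds pre-ribosomes and ribosomes (chromosome 12, from 56104537 to 56113910), had 1351, 1681 and 1589 CPM without Dox and 893, 930.04 and 771 CPM with Dox. Its log2 fold change was -0.83 (SE 0.13, adjusted p = 1.802e-04), the smallest adjusted p of the 52. GENCODE lists 6 pseudogenes named after PA2G4 and an unnamed gene over its 3ʹ end on the other strand, so its level is uncertain. NOP16, a nucleolar protein of the early 60S particle (chromosome 5, from 176383946 to 176388927), had 132, 134 and 124 CPM without Dox and 82.0, 81.8 and 83.1 CPM with Dox. Its replicates varied little, and its log2 fold change was -0.66 (SE 0.12, adjusted p = 5.985e-04).

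MRTO4, a paralog of the ribosomal stalk protein that holds its place during assembly, fell from 116 ± 14.9 to 72.3 ± 4.79 CPM. RRS1, which helps load the 5S ribonucleoprotein, fell from 57.3 ± 0.637 to 36.4 ± 4.45 CPM, and PES1 fell from 76.5 ± 13.9 to 48.1 ± 6.86 CPM (SD, n = 3 each; adjusted p = 0.00112, 0.00279 and 0.00511). PES1 works in a complex with BOP1 and WDR12, whose log2 fold changes of -0.45 and -0.29 did not pass (adjusted p = 0.106 and 0.249). The 3ʹ end of RRS1 overlaps an unnamed gene on the same strand. NOC2L had the largest fall in size, -1.05 (SE 0.28, adjusted p = 0.0101), but it rests on 298 counts over the 6 libraries, and its 3ʹ end overlaps exons of SAMD11 on the other strand. RRP1B had -0.37 (adjusted p = 0.0384), and its call was lost without any 1 library other than replicate 3 with Dox (log2 fold change -0.43 to -0.33).

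The remaining 60S genes ranged from -0.44 to -0.011. GNL3, the GTPase nucleostemin, had 144, 162 and 139 CPM without Dox and 109, 143 and 78.0 CPM with Dox, and replicate 2 with Dox fell among the controls. NOC3L and EBNA1BP2 did not overlap between the conditions, with log2 fold changes of -0.36 and -0.33 (adjusted p = 0.0512 and 0.0810). DDX18, GNL2, NOP2, which methylates 28S ribosomal RNA, DDX56 and PPAN had -0.14, -0.12, -0.11, -0.021 and -0.011. PPAN shares its 3ʹ end with P2RY11, so its counts are uncertain. Exons of other genes also lie over the 3ʹ ends of TAF1D, HEATR1, NOP14, DDX47, NOB1, NOP2, GNL2 and GNL3, and GENCODE lists 1 to 5 pseudogenes named after each of DDX18, NOP56, NCL, NHP2, PES1, NOC2L, DDX10, NOLC1, LTV1 and GNL2.

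**Figure D3:**
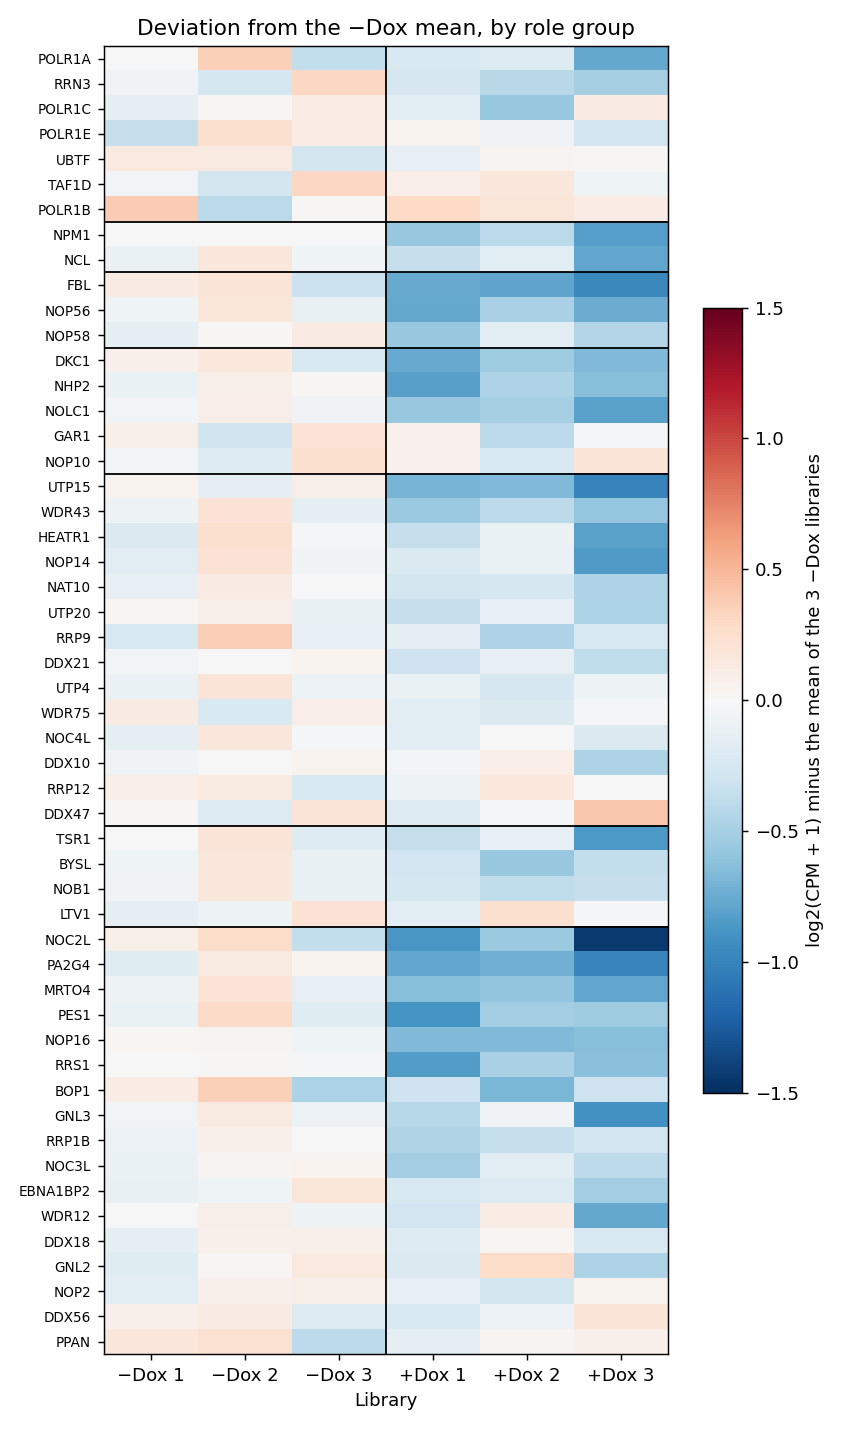
Deviation of each gene (rows, in role groups divided by lines) in each library (columns) from the mean of the 3 libraries without Dox, as a difference of log2(CPM + 1). Blue is lower and red is higher; replicate 3 with Dox was the lowest of the 6 libraries for 24 of the 52 genes.

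The libraries with Dox did not fall equally. Over the 52 genes the median difference of log2(CPM + 1) from the mean without Dox was -0.28, -0.23 and -0.46 in replicates 1, 2 and 3 with Dox, and -0.050, 0.11 and -0.029 in replicates 1, 2 and 3 without Dox. Replicate 3 with Dox was the lowest of the 6 libraries for 24 genes, and replicates 1 and 2 with Dox for 10 each. Replicate 2 without Dox was the highest for 30 genes. Without replicate 3 with Dox, 15 of the 52 fell, and the median log2 fold change was -0.24. Without replicate 2 without Dox, 15 fell and the median was -0.28.

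Of the 17 genes that fell, 13 kept the call and the direction in each of 15 alternatives. They were NPM1, FBL, NOP56, DKC1, NHP2, NOLC1, UTP15, PES1, NOP16, NOC2L, RRS1, MRTO4 and PA2G4. WDR43 lost its call only where a change over 1.2-fold was demanded (adjusted p = 0.0546). The scaling of the libraries moved the values of all genes together. With library totals alone the median of all genes was 0.14 and that of the 52 was -0.23, and 14 of the 52 fell.

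**Figure D4:**
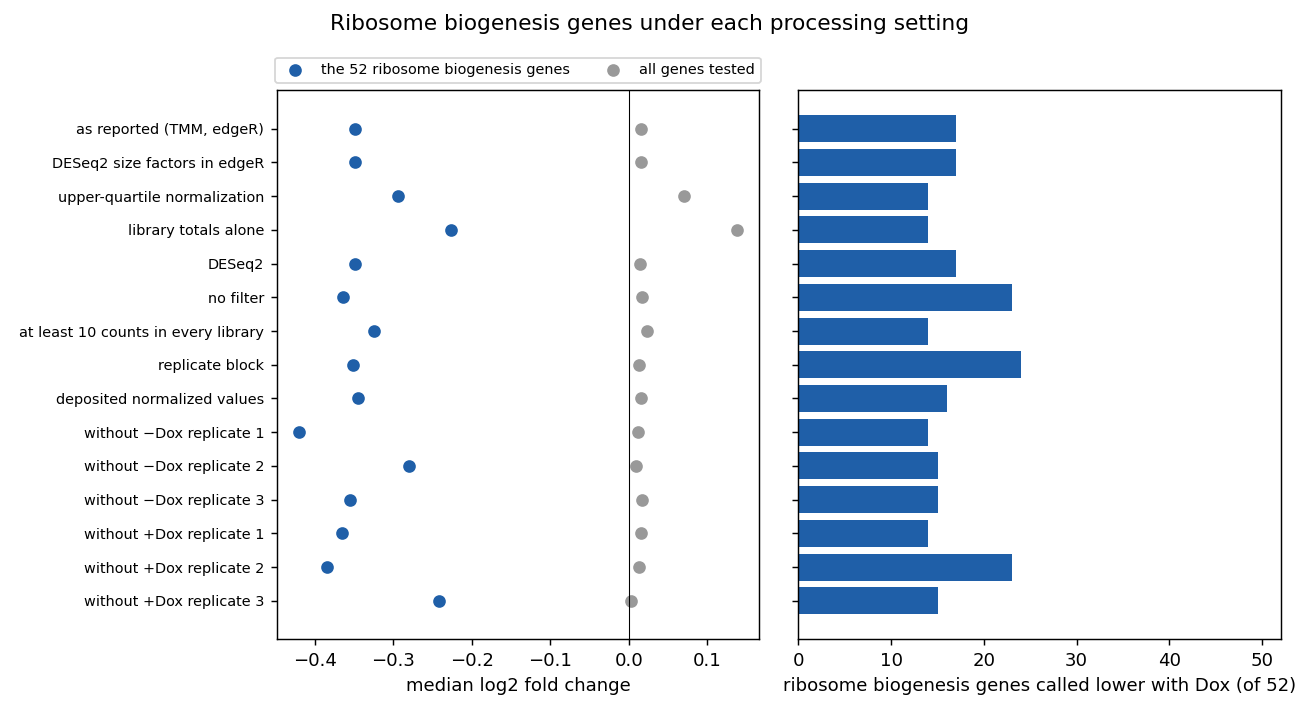
Left, median log2 fold change (x axis) of the 52 ribosome biogenesis genes (blue) and of all genes tested (grey) under each setting (y axis). Right, number of the 52 genes called lower, as bars from 0; it was 14 to 24 in the settings drawn, and the blue points lie left of the grey points in each.

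Several of the 52 genes carry snoRNA genes inside their bounds in GENCODE. TAF1D holds 8, GNL3 6, NOP56 5, NOP58 4, NCL and WDR43 3 each, and DKC1 and PPAN 2 each. Of these 8 hosts, 4 fell (NOP56, NOP58, DKC1 and WDR43), which is 50%, against 13.7% of all genes. The call of NOP58 was lost in 9 of 15 alternatives. The median log2 fold change of the 8 hosts was -0.43. Of the other 44 genes, 13 fell (29.5%), with a median of -0.33. The difference between hosts and other genes was not tested. TSR1 and POLR1C, which hold 2 and 1, were not on the list of hosts and are counted among the 44. The snoRNAs themselves have no poly(A) tail and were not measured. Across the 52 genes, the log2 fold change went with the mean log2 CPM with a Spearman rho of -0.33; these points share libraries and depth, and genes are not independent replicates.

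The promoters of the genes were searched for CACGTG, the E-box bound by MYC, USF and related factors, which reads the same on both strands. RefSeq windows (GRCh38.p14) from 250 bases before to 50 bases after the gene start were found for 44 of the 52 genes, and not for POLR1E, NOP58, NOLC1, RRP12, BOP1, RRS1, RRP1B and DDX18. CACGTG was in 16 of the 44 (36.4%), against 7.43% of all 27305 such windows and 10.5% of those of tested genes. It was in 4 of 13 windows of genes that fell (30.8%) and in 12 of 31 of the others (38.7%). In 15 of the 16 it lay within 40 bases of the start, as in 33.7% of the windows of tested genes that hold it. CCGGAAG, an ETS-type motif searched on both strands, was in 38.6% of the 44 and 20.3% of those of tested genes. Neither motif was particular to the 52 genes. In 101 windows of the other pathway genes described below, CACGTG was in 26.7% and CCGGAAG in 41.6%. Of those that held CACGTG, 66.7% had it within 40 bases of the start. A match of letters is not a binding site. The 30 bases around CACGTG are shown, in capitals, for the 4 genes that fell and for the 4 of the 12 others with the smallest adjusted p, to set both kinds side by side; each is read 5ʹ to 3ʹ on the strand of the gene.
FBL: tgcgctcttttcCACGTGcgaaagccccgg
MRTO4: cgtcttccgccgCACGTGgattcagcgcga
PES1: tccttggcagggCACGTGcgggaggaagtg
WDR43: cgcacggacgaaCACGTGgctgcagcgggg
NAT10: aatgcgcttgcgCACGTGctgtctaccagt
NOC3L: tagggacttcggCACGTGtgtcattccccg
BYSL: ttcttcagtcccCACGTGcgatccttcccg
EBNA1BP2: gatattgttggcCACGTGggatcgaagacc
These lie at chr19:39846356-39846385 (minus strand) for FBL, chr1:19251807-19251836 (plus) for MRTO4, chr22:30591880-30591909 (minus) for PES1 and chr2:28894658-28894687 (plus) for WDR43. Those of the genes that did not pass lie at chr11:34105602-34105631 (plus) for NAT10, chr10:94362903-94362932 (minus) for NOC3L, chr6:41921515-41921544 (plus) for BYSL and chr1:43172790-43172819 (minus) for EBNA1BP2. The E-box began 6, 14, 13 and 3 bases after the start in FBL, MRTO4, PES1 and WDR43, 19 and 28 bases after it in NOC3L and BYSL, and 15 and 237 bases before it in NAT10 and EBNA1BP2. Of the 12 genes that did not pass, it began after the start in 6 and before it in 6. Starts are those of RefSeq, which can differ from those of GENCODE.

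The rest of the pathway was read from 115 other genes, each of which was tested. Of these, 14 fell and 3 rose (12.2% and 2.61%), and the median log2 fold change was -0.13. Their share of falls was thus near the 13.7% of all genes, and below the 32.7% of the 52; the share of rises was below the 11.9% of all genes. With library totals alone, 7 of the 115 fell and 9 rose, so the balance of the calls turns with the scaling. The difference between the lists was not tested. Without replicate 1 with Dox the count that fell was 6, and without replicate 1 or 2 without Dox it was 8.

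Among 16 other genes of RNA polymerase I, 3 fell and 1 rose (18.8% and 6.25%, against 13.7% and 11.9% of all genes). TCOF1, which encodes treacle, a nucleolar partner of the polymerase and UBTF, had 116, 160.02 and 139 CPM without Dox and 78.5, 80.1 and 61.9 CPM with Dox, a log2 fold change of -0.92 (SE 0.15, adjusted p = 1.826e-04). POLR2E, a subunit that the nuclear RNA polymerases share, fell from 574 ± 97.5 to 412 ± 44.9 CPM (adjusted p = 0.0206). The third to fall was POLR1G, the partner of POLR1E and listed as CD3EAP, with -0.60 (adjusted p = 0.0308); it is named after its values were seen. POLR1F, a further subunit, listed as TWISTNB (chromosome 7, from 19695461 to 19709037), moved the other way. It had 104, 118 and 151 CPM without Dox and 327, 387 and 381 CPM with Dox, a 2.92-fold rise (log2 fold change 1.55, SE 0.15, adjusted p = 5.332e-07). POLR1F thus rose while 0 of the 7 polymerase genes of the main list rose.

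Of 42 other processome and 40S factors, 6 fell and 1 rose (14.3% and 2.38%, against 13.7% and 11.9% of all genes). EMG1, a methyltransferase of 18S ribosomal RNA, had a log2 fold change of -0.57 and PDCD11, an early processome protein, -0.49 (adjusted p = 0.00489 and 0.00675). RIOK3, a kinase of the pre-40S particle, rose by 0.35 on the log2 scale (adjusted p = 0.0490). Of 42 other 60S factors, 2 fell and 1 rose (4.76% and 2.38%), with a median of -0.044. LAS1L, an endonuclease that cuts the spacer between 5.8S and 28S ribosomal RNA, had -0.72 and BRIX1 -0.50 (adjusted p = 0.00347 and 0.0120). GTPBP4, a GTPase of the nucleolar 60S particle, had 140.01, 163 and 153.3 CPM without Dox and 219, 217 and 182 CPM with Dox, a log2 fold change of 0.44 (SE 0.13, adjusted p = 0.0173). Of 15 genes of the nuclear RNA exosome and its cofactors, which trim the precursor, 3 fell (20%, against 13.7% of all genes) and 0 rose. A log2 fold change below 0 was found for 14 of the 15 (93.3%), against 48.5% of all genes. EXOSC6 had -0.71 and EXOSC2 -0.60 (adjusted p = 0.00171 and 0.0158).

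**Figure D5:**
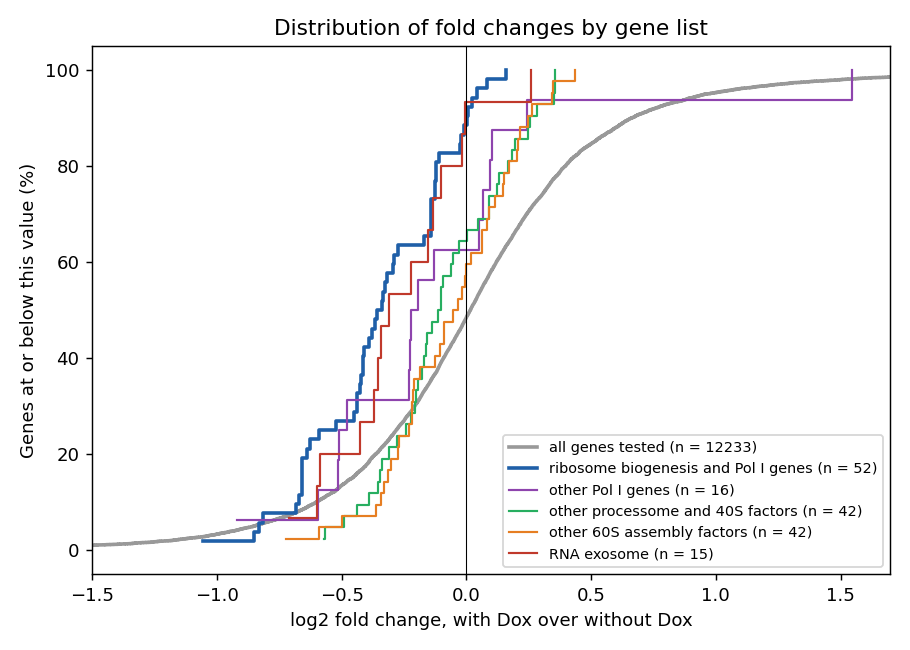
Cumulative share of genes (y axis, percent) at or below each log2 fold change (x axis, with Dox over without Dox) for all 12233 genes tested, the 52 ribosome biogenesis genes and the 4 lists of other pathway genes. At a log2 fold change of 0 the blue line of the 52 genes stands at 88.5% and the grey line of all genes at 48.5%, and the last step of the other polymerase genes, at 1.55, is POLR1F.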

How the data were processed

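Libraries were prepared by the authors with a QuantSeq 3ʹ kit, sequenced as single-end reads, demultiplexed with CASAVA 1.8.2 and mapped to hg38 with STAR; HTSeq and edgeR are named in the submitters' processing notes. The strand setting and annotation are not given in the sources used here, and the methods and labels name different versions of the kit (REV and FWD). The authors deposited raw counts per gene symbol for 6 libraries. They also deposited a normalized signal per library, whose method is not given. Its values served as an alternative on the scale log2(value + 1), without 27 renamed rows.

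Counts were tested with edgeR 4.0.16 in R 4.3.3 (TMM, filterByExpr, quasi-likelihood test, adjusted p under 0.05; standard error as the log2 fold change over the root of F). DESeq2 1.42.0 and limma 3.58.1 were used for alternatives. Library sizes excluded 5 rows that name no gene, of which unassigned reads held 32.5% to 39.5% and ambiguous reads 3.05% to 3.37% of each library. A count of 3, taken as the limit of detection, is 0.413 to 0.884 CPM; it covers counting error only. The test was tried on simulated counts of 12101 genes, few of which were given a change. Each pair of replicates differed by more than sampling noise (chi-square per degree of freedom 3.36 to 9.30). Coordinates are from GENCODE 44 on hg38.

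The 52 genes, their role groups and the 115 other pathway genes were chosen with earlier results of these data known, from textbook knowledge. Levels in every library are given for the polymerase I genes, NCL, NPM1, FBL and, per role group, the 2 genes called lower and 2 called higher with the smallest adjusted p; other genes so given were picked after their values were seen. In each list of other genes, up to 2 called lower and 2 called higher are named, by adjusted p. The promoter motifs were chosen after the fold changes were known. Alternatives were other normalizations, tests and filters, a replicate block, the normalized signal and each library left out in turn.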

Additional observations from a re-analysis of the deposited data

How the results depend on the processing

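The 52 ribosome biogenesis genes were read under 15 alternatives, of which 6 each left out 1 library; 13 to 24 fell and 0 rose in each, and the cause of the changes that follow was not tested. Between libraries of the same replicate number, deviations from the group mean correlated at -0.011, 0.25 and 0.086 in replicates 1, 2 and 3. Libraries of unlike number were not compared in this way, so whether replicates are paired is not settled. With a replicate block 24 of the 52 fell, 5 of the 115 other pathway genes rose, and PPAN turned to 0.011 on the log2 scale. With upper-quartile normalization 5 of the 115 rose, and UBTF, PPAN and DDX56 turned to 0.028, 0.044 and 0.034. With library totals alone, which moved the median of all genes to 0.14, the median of the 52 was -0.23, 7 of the 115 fell and 9 rose, and UBTF, NOP2, PPAN, GNL2 and DDX56 turned to 0.096, 0.015, 0.11, 0.0013 and 0.10. Over all genes this scaling called 1136 lower and 2179 higher, against 1674 and 1451. With no filter NOP10 and LTV1 turned to -0.0083 and -0.012, with at least 10 counts in every library PPAN and DDX56 to 0.013 and 0.0026, and with the deposited normalized values PPAN to 5.156e-04. With a change over 1.2-fold demanded, 1896 genes were called in all (3125 without that demand), 13 of the 52 fell, and of the 115 4 fell and 1 rose. Over the 6 fits that each left out a library, the median of the 52 was -0.42 to -0.24, and of the 115 6 to 16 fell and 1 to 4 rose. Over the same fits the log2 fold change ranged from -0.013 to 0.35 for POLR1B, -0.16 to 0.032 for UBTF, -0.090 to 0.22 for TAF1D, -0.097 to 0.14 for NOP10, -0.25 to 0.031 for DDX10, -0.13 to 0.20 for DDX47, -0.096 to 0.086 for RRP12, -0.11 to 0.13 for LTV1, -0.21 to 0.096 for PPAN, -0.35 to 0.040 for GNL2 and -0.16 to 0.067 for DDX56, and none of these 11 was called as reported. Of the 35 genes not called, 10 gained a call in at least 1 alternative. Falls under 1.5-fold were not simulated, so how often they would be missed was not tested. RRP1B, NOP58, RRN3 and WDR43 were called at falls of 1.29-fold to 1.44-fold.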

Other observations

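The ribosome's own proteins are made from mRNAs that are controlled largely at translation, and their levels were read beside the 52 assembly genes. Of 85 cytosolic ribosomal protein genes, picked by symbol after the results were known, 82 were tested. Of these, 7 fell and 1 rose (8.54% and 1.22%, against 13.7% and 11.9% of all genes), and the median log2 fold change was 0.03, with 37 below 0 and 45 above. Summed over all of them the level was 75502 ± 2058 CPM without Dox and 69572 ± 957 CPM with Dox (SD, n = 3 each), which is 7.85% lower. This difference depends on the scaling. With library totals alone the ribosomal protein genes took 7.21% ± 0.158 of the counts without Dox and 7.23% ± 0.0853 with Dox (SD, n = 3 each). The 52 biogenesis genes took 0.856% ± 0.0480 and 0.672% ± 0.0635 on that scale, and no test compared the lists.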
